A study of Homo sapiens with 4 samples.

Results

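The miRNAs described here are the late-named human miRNAs from miR-1178 to miR-1299, a block of names assigned when small RNA sequencing began to add many new entries to the miRNA registry. They were taken by name: every deposited name without a star (the star marks the minor arm of a hairpin) and with a number in that span and any suffix. The 7 names miR-1185, miR-1193, miR-1197, miR-1246, miR-1274a, miR-1274b and miR-1283 were left out by the rule. This gave 89 of the 1100 names in the deposited values, and no measured value entered the choice. The human prefix is left out of the names below.

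Small RNA was sequenced from MDA-MB-231, a triple-negative human breast cancer line with mesenchymal features, and from MCF-10A, a non-transformed human mammary epithelial line, each as cells and as purified exosomes. Exosomes are membrane vesicles shed by cells, with RNA among their contents. MDA-MB-231 was cultured in DMEM with 10% FBS, and MCF-10A in DMEM/F12 with 5% horse serum, insulin, EGF, cholera toxin and hydrocortisone, so the medium differed between the lines together with the line itself. RNA came from cells by TRIZOL and from exosomes by TRIZOL LS, was selected at 17 to 52 nt and was ligated by a method that needs a 5′ monophosphate. How the exosomes were purified is not given in the sources used here. Each of the 4 groups held 1 library, so no difference below could be checked against replicates, and no p-values are given.

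A canonical miRNA is cut from the stem of a hairpin transcript in the nucleus by Drosha and then in the cytoplasm by Dicer, and the bases after its first base, the seed, guide it to target messages. Names of this block were largely proposed from sequencing reads, and they hold several unusual kinds: mirtrons, whose hairpin is a short spliced intron that skips the Drosha cut; hairpins that overlap small nucleolar RNAs (snoRNAs), which guide chemical modification of ribosomal and spliceosomal RNA; and short sequences within Alu elements, the primate repeats found throughout the genome. For such names a read can come from a processed miRNA or from a fragment of another RNA, and a table of reads per name cannot tell these apart.

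The mature sequences of the names that carry the largest values or differences are shown first, 5′ to 3′, with the seed (bases 2 to 8) in capitals. Of the 89 names, 50 had 1 mature entry in RefSeq (GRCh38.p14), 25 had entries for an arm that the deposited name does not give, and 14 had no mature entry. Among names with 1 entry these were:
miR-1268: cGGGCGUGgugguggggg
miR-1270: cUGGAGAUauggaagagcugugu
miR-1276: uAAAGAGCccuguggagaca
miR-1275: gUGGGGGAgaggcuguc
miR-1293: uGGGUGGUcuggagauuugugc
miR-1262: aUGGGUGAauuuguagaaggau
miR-1299: uUCUGGAAuucugugugaggga
miR-1255a: aGGAUGAGcaaagaaaguagauu
miR-1179: aAGCAUUCuuucauugguugg
The sequence of miR-1268 is listed under the later name miR-1268a. It is 18 bases long with 13 G, a GC content of 83.3%, while the median GC content of the 50 names with 1 entry was 48.9%.

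For names with no arm in the deposited values the arms listed by RefSeq are shown, since which of them was counted is not known:
miR-1285-3p: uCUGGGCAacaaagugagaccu
miR-1292-5p: uGGGAACGgguuccggcagacgcug
miR-1292-3p: uCGCGCCCcggcucccguuc
miR-1287-5p: uGCUGGAUcagugguucgaguc
miR-1287-3p: cUCUAGCCacagaugcagugau
miR-1247-5p: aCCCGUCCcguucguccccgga
miR-1247-3p: cCCCGGGAacgucgagacuggagc
miR-1271-5p: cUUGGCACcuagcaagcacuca
miR-1271-3p: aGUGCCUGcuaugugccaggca
Some seeds recur. The seed UUGGCAC of miR-1271-5p is also that of miR-96-5p, a miRNA of the miR-183 cluster, and the seed UGGAGAU of miR-1270 is also that of miR-620. The seed UCCCACC is shared by miR-1260 and miR-1260b, 2 names of this block.

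The 6 names without a RefSeq gene could not be checked for overlap with a snoRNA. The names with a RefSeq locus that overlaps a snoRNA are shown because they lie within a longer non-coding RNA:
miR-1248: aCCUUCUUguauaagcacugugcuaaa
miR-1291: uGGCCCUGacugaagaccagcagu
The miR-1248 hairpin (chr3:186786672-186786777, plus strand, GRCh38) overlaps SNORA81 and an exon of EIF4A2. The miR-1291 hairpin (chr12:48654444-48654530, minus strand) overlaps SNORA2C within an intron of KANSL2.

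Hairpins of 3 names are shown whole with the mature sequence in capitals, as examples of intronic hairpins with the mature sequence on the 5′ side:
MIR1293: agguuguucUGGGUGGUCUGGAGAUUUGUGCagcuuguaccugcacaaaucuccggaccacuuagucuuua
MIR1270: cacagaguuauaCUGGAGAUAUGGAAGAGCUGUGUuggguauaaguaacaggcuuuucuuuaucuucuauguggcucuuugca
MIR1262: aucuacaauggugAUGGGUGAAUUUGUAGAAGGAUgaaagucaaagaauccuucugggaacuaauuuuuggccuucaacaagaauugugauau
MIR1293 lies at chr12:50234142-50234212 on the minus strand in an intron of LIMA1. MIR1270 lies at chr19:20399272-20399354 on the minus strand in an intron of the pseudogene ZNF826P, and MIR1262 at chr1:68183518-68183610 on the minus strand in an intron of WLS, which encodes a carrier of Wnt proteins. All these positions are in GRCh38.

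The deposited values are levels on the scale log2(reads per 10000000 miRNA reads + 1), and the whole reads behind them could be recovered. For MDA-MB-231, depth was 1532908 reads in exosomes and 7346076 in cells. For MCF-10A, it was 1254641 reads in exosomes, with 10937895 in the library labelled MCF-10A cell, so the deepest library had 8.72 times the reads of the shallowest. With 0 reads counted, up to 3 are allowed, or 19.6, 4.08, 23.9 and 2.74 per 10000000 in that order. A fold given below as at least a value uses this bound and leaves out the counting error of the other library. The library labelled MCF-10A cell goes against its label: 32 of 32 markers of muscle, stroma, endothelium, blood, liver, brain and placenta were above 0 and held 47.4% of its reads. The same markers held 2.33% of reads in exosomes of MDA-MB-231, 0.0687% in its cells and 0.0813% in exosomes of MCF-10A, with 23, 18 and 15 of them above 0. The 10 epithelial markers held 8.44% of MCF-10A exosome reads, 1.06% of the library labelled MCF-10A cell, and 0.571% and 0.675% of MDA-MB-231 exosomes and cells. This library is called the library labelled MCF-10A cell throughout. It is the only cell library of its line, so no comparison that uses it could be repeated without it. In any such bulk library, fewer cells of a type and less RNA per cell cannot be told apart.

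Most of the late-named miRNAs were rare or absent. Of the 89 names, 30 (33.7%) had no read in any library, 22 had reads in 1 library, 9 in 2, 16 in 3 and 12 in all 4. The share with no read in any library lay between that of the 591 names with lower numbers (16.1%) and that of the 227 names with higher numbers (54.6%). In MDA-MB-231 exosomes the block made up 0.0544% of reads (Wilson 95% interval 0.0508 to 0.0582, 834 reads). Its share was 0.0899% in the cells of that line (0.0878 to 0.0921, 6606 reads) and 0.0454% in MCF-10A exosomes (0.0418 to 0.0492, 569 reads). It took 0.0185% in the library labelled MCF-10A cell (0.0177 to 0.0193, 2019 reads). These intervals, like every interval below, cover counting error only, since PCR copies were not marked by molecular identifiers. The share was lower in exosomes than in cells of MDA-MB-231, and in MCF-10A it was higher in exosomes than in the library labelled MCF-10A cell. In both cases the intervals did not overlap. The MCF-10A direction rests on miR-1268: without that name the block held 0.0160% in exosomes (0.0140 to 0.0184) against 0.0184% (0.0177 to 0.0193). In MDA-MB-231 the shares without it were 0.0214% in exosomes (0.0192 to 0.0238) against 0.0328% in cells (0.0315 to 0.0341).

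**Figure D1:**
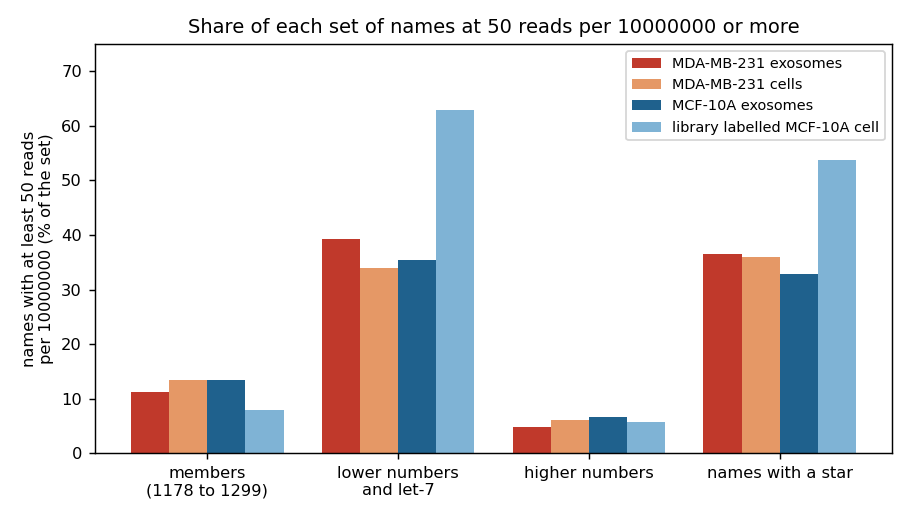
Bars show the percent of names (vertical axis) at 50 or more reads per 10000000 in each of the 4 libraries, for the late-named miRNAs and for lower-numbered names with let-7, higher-numbered names and names with a star. The late-named miRNAs had 11.2%, 13.5%, 13.5% and 7.87% of their names at that level, against 39.3%, 34.0%, 35.5% and 62.9% of lower-numbered names.

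The number of names above 0 followed a different order from the share of reads. MDA-MB-231 had 25 in exosomes and 38 in cells, MCF-10A had 23 in exosomes, and 50 were found for the library labelled MCF-10A cell, so the deeper libraries held more names. The 16 names with reads in the library labelled MCF-10A cell alone included miR-1247, miR-1251, miR-1250, miR-1298, miR-1224-3p and miR-1264. The names above 0 only in MDA-MB-231 cells were miR-1234, miR-1252, miR-1260 and miR-1280. Those in 1 exosome library alone were miR-1289 (MDA-MB-231) and miR-1293 (MCF-10A). At most 12 names in any library reached 50 reads per 10000000, and these 23 names in all are described one by one below.

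miR-1268, an Alu-derived name, was the most abundant of the block in 3 libraries. Its level was 11.69 in exosomes and 12.48 in cells of MDA-MB-231, 11.52 in exosomes of MCF-10A, but 0.94 for the library labelled MCF-10A cell, from 506, 4196, 368 and 1 reads. It held 60.7%, 63.5% and 64.7% of the reads of the block in the first 3 libraries and 0.0495% in the last. Among all 1100 names it ranked 89, 69, 77 and 747.

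**Figure D2:**
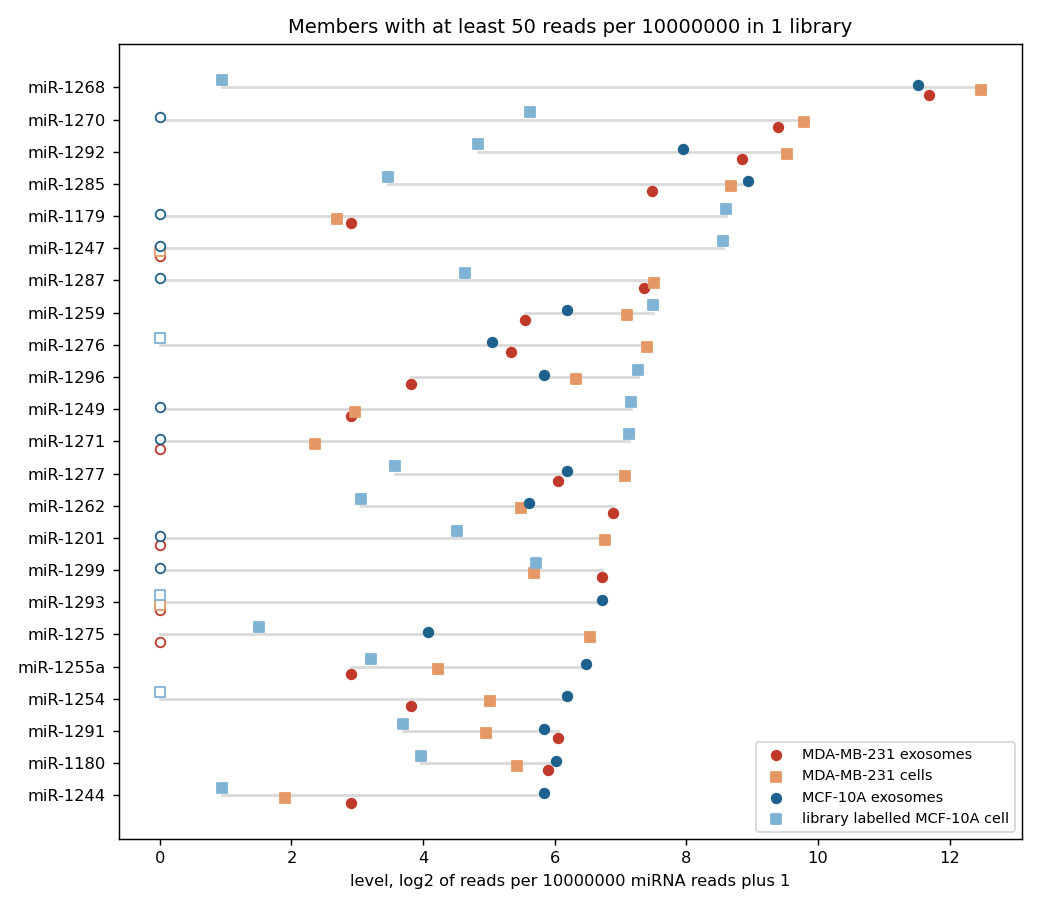
Levels of the 23 late-named miRNAs that reached 50 reads per 10000000 in a library, as log2(reads per 10000000 + 1), in the 4 libraries. miR-1268 stands at 11.52 to 12.48 in 3 libraries and at 0.94 in the library labelled MCF-10A cell, while miR-1179 and miR-1247 stand above 8 in that library alone.

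The next names are given with their 4 levels in the order MDA-MB-231 exosomes, MDA-MB-231 cells, MCF-10A exosomes and, last, the library labelled MCF-10A cell. miR-1270 was at 9.39, 9.79, 0 and 5.63. miR-1292 was at 8.84, 9.53, 7.95 and 4.83. miR-1285 was at 7.47, 8.68, 8.93 and 3.47. Each of these was lowest, above 0, in the last library, and miR-1270 had no read in MCF-10A exosomes. miR-1287 was at 7.36, 7.50, 0 and 4.63. miR-1299 was at 6.72, 5.68, 0 and 5.71. miR-1201 was at 0, 6.76, 0 and 4.52. These 3 were, like miR-1270, without a read in MCF-10A exosomes. miR-1277 was at 6.05, 7.06, 6.18 and 3.58. miR-1276 was at 5.33, 7.40, 5.04 and 0. miR-1275 was at 0, 6.53, 4.08 and 1.50. In miR-1277, miR-1276 and miR-1275, the highest level was that of MDA-MB-231 cells. Of the names before them, miR-1285 was highest in MCF-10A exosomes and miR-1299 in MDA-MB-231 exosomes.

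The names that follow had their highest level in an exosome library or in the library labelled MCF-10A cell. miR-1262 was at 6.89, 5.48, 5.61 and 3.06. miR-1291 was at 6.05, 4.95, 5.83 and 3.69. These 2 were highest in MDA-MB-231 exosomes. miR-1180 was at 5.90, 5.43, 6.02 and 3.97. miR-1255a was at 2.91, 4.22, 6.47 and 3.21. miR-1254 was at 3.81, 5.01, 6.18 and 0. Like miR-1244, at 2.91, 1.90, 5.83 and 0.94, these 3 were highest in MCF-10A exosomes. miR-1179 was at 2.91, 2.69, 0 and 8.60. miR-1249 was at 2.91, 2.96, 0 and 7.16. miR-1271 was at 0, 2.35, 0 and 7.13. With miR-1247, at 8.56 in the last library and 0 in the others, they were highest in the library labelled MCF-10A cell, with 5 reads or fewer in any other.

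The comparison of exosomes with cells in MDA-MB-231 found late-named miRNAs on both sides, with miR-1201 and miR-1275 lower in exosomes and miR-1248 higher. Of the 89 names, 23 reached 10 reads per 10000000 in 1 of the 2 libraries. By a 4-fold size (a log2 difference of 2), 3 were higher in exosomes and 5 lower, and 15 lay within 4-fold. Over all 499 names measured this way 22.2% were higher and 13.4% lower, 35.7% in either direction, beside 34.8% of the late-named miRNAs in either direction, so their share past 4-fold was near that of all names. Their median log2 difference, exosomes minus cells, was −0.79, and that of all names −0.09. When libraries were scaled by the upper quartile, the median of all names moved to −1.03, and 3 late-named miRNAs were higher and 10 lower.

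The 5 lower names were miR-1201, miR-1257, miR-1275, miR-1276 and miR-1296. miR-1201 had 0 reads in exosomes against 79 in cells (levels 0 and 6.76), which is at least 5.49-fold lower. miR-1275 had 0 against 67 reads (0 and 6.53), at least 4.66-fold lower. miR-1296 was at 3.81 in exosomes and 6.32 in cells, from 2 and 58 reads, 6.05-fold lower with a counting interval of 1.60 to 51.2. These 3 names had few or no exosome reads and a cell level above 6. miR-1276 was at 5.33 and 7.40, from 6 and 123 reads, 4.28-fold lower (1.91 to 11.9). miR-1257 had 0 reads in exosomes and 9 in cells, which is under what a count of 0 allows in the shallower library.

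The 3 higher names all had 5 reads or fewer. miR-1248, a snoRNA-overlapping name, was at 5.07 in exosomes and 0 in cells, from 5 and 0 reads, at least 7.99-fold higher. miR-1224-5p, a mirtron name, was at 5.07 and 1.90, from 5 and 2 reads, 12.0-fold higher (1.96 to 126). miR-1289 had 2 reads in exosomes and none elsewhere. The next in size were miR-1262 (6.89 and 5.48, from 18 and 32 reads, 2.70-fold higher, 1.42 to 4.95) and miR-1291 (6.05 and 4.95, from 10 and 22 reads).

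By a rule that uses the recovered reads (at least 10 in 1 library and a counting interval that leaves out no difference), 19 names were measured in this pair. Of these, 2 were higher in exosomes, 10 lower and 7 unresolved, beside 32.3% higher and 36.3% lower (68.6% in either direction) of all 427 names measured. The higher names were miR-1262 and miR-1299, the latter 2.07-fold (1.08 to 3.82; levels 6.72 and 5.68, from 16 and 37 reads). Upper-quartile scaling ended both calls, with log2 differences of 0.48 for miR-1262 and 0.11 for miR-1299. Among the lower names, miR-1268 was 1.73-fold lower (1.58 to 1.90), miR-1292 1.62-fold (1.26 to 2.10) and miR-1285 2.33-fold (1.57 to 3.59). The 4 most abundant names of the block in MDA-MB-231 cells, miR-1268, miR-1270, miR-1292 and miR-1285, were each lower in exosomes by less than 4-fold. miR-1270 stood at 9.39 in exosomes and 9.79 in cells, from 103 and 650 reads, 1.32-fold lower (1.07 to 1.64). miR-1259 was 2.95-fold lower (1.38 to 7.53) and miR-1277 2.02-fold lower (1.05 to 4.35). miR-1287, whose hairpin lies in PYROXD2, was at 7.36 and 7.50, from 25 and 132 reads, with a ratio of 1.10-fold lower that its counting interval did not resolve (0.715 to 1.76).

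In MCF-10A, miR-1268, miR-1285 and miR-1292 were higher in exosomes than in the library labelled MCF-10A cell, and miR-1179 and miR-1247 were lower. Of the 23 late-named miRNAs with reads in the exosomes, 19 (82.6%) also had reads in the other library, which is 38.0% of its 50. Over all names these shares were 96.6% and 53.0%. Of 32 names measured, 14 were higher in exosomes by 4-fold, 13 lower and 5 within, which is 43.8% higher and 40.6% lower. Over all 661 names measured 15.4% were higher and 57.2% lower, 72.6% in either direction. The median log2 difference of the late-named miRNAs was 0.84, beside −3.27 over all names. Lower-numbered names had 9.93% higher and a median of −3.97, and higher-numbered names had 54.1% higher and a median of 2.82. With names at 0 placed at their 3-read bound, the median was 2.18 over 26 late-named miRNAs and −1.85 over 620 of all names. These medians leave out names whose level was within what a count of 0 allows. The late-named miRNAs left out this way were all on the lower side. A scaling to the reads outside the other-tissue markers moved the median of all names to −4.13 and that of the late-named miRNAs to −0.04, with 9 of them higher and 15 lower. The markers of other tissues, at 47.4% of reads in the library labelled MCF-10A cell and 0.0813% in the exosomes, differ along with this comparison, and their part in it was not tested beyond that scaling.

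By the rule on recovered reads, 25 names were measured, of which 8 were higher in exosomes, 9 lower and 8 unresolved, beside 18.9% higher and 62.2% lower (81.1% in either direction) of all 629 names. That is 68.0% of the late-named miRNAs in either direction. miR-1268 was 3208-fold higher in exosomes, with a counting interval of 572 to 127057 that reflects the single read of the other library. Its log2 difference, 10.58, was the largest of the 661 names. miR-1285 was at 8.93 in exosomes against 3.47 for the library labelled MCF-10A cell, from 61 and 11 reads, 48.3-fold higher (25.2 to 102). miR-1292 was at 7.95 and 4.83, from 31 and 30 reads, 9.01-fold higher (5.27 to 15.4). These 3 names were also the most abundant of the block in MCF-10A exosomes.

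Further names were higher in exosomes with fewer reads. miR-1255a stood at 6.47 and 3.21 (11 and 9 reads, 10.7-fold higher, 4.01 to 29.1) and miR-1277 at 6.18 and 3.58 (9 and 12 reads, 6.54-fold, 2.43 to 16.9). miR-1293 had 13 reads in MCF-10A exosomes (level 6.71) and none in any other library, which is at least 37.8-fold higher than in the library labelled MCF-10A cell. miR-1254 (level 6.18, 9 reads) and miR-1276 (5.04, 4 reads) also had no read in that library and were at least 26.2-fold and 11.6-fold higher. miR-1291 was 4.69-fold higher (1.59 to 12.7; levels 5.83 and 3.69) and miR-1180 4.36-fold (1.62 to 10.8; levels 6.02 and 3.97). The scaling outside other-tissue markers ended the calls by reads of miR-1291 and miR-1180. The other names past 4-fold were miR-1262 (5.61 and 3.06), miR-1244 (5.83 and 0.94), miR-1275 (4.08 and 1.50) and miR-1290 (5.04 and 1.50), each from 7 or fewer exosome reads. The ratio of miR-1275, from 2 and 2 reads, was not resolved by its counting interval (8.72-fold, 0.632 to 120).

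The 13 lower names had 0 reads in MCF-10A exosomes, with the exception of miR-1248. In the library labelled MCF-10A cell the highest of them were miR-1179 (8.60, 423 reads) and miR-1247 (8.56, 412 reads). They were at least 16.2-fold and 15.8-fold lower in exosomes. miR-1249 (7.16, 155 reads) and miR-1271 (7.13, 152 reads) were at least 5.93-fold and 5.81-fold lower. miR-1270 (5.63, 53 reads) and miR-1299 (5.71, 56 reads) were at least 2.03-fold and 2.14-fold lower. For the other 6 names, miR-1201 (level 4.52 in the library labelled MCF-10A cell), miR-1224-3p (3.88), miR-1250 (4.34), miR-1251 (4.52), miR-1287 (4.63) and miR-1298 (3.88), the level was within what a count of 0 allows in the exosome library. Their absence there was not detectable at this depth. miR-1248 was at 3.17 in exosomes against 5.60 for the library labelled MCF-10A cell, from 1 and 52 reads, 5.96-fold lower (1.02 to 240). Median-of-ratios scaling ended the calls by reads of miR-1248, miR-1270, miR-1259 and miR-1296.

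A pair of names with reads in all 4 libraries stayed within 4-fold here and were lower by the rule on reads. miR-1259 was at 5.54 in exosomes and 7.09 in cells of MDA-MB-231, 6.18 in exosomes of MCF-10A, with 7.49 for the library labelled MCF-10A cell; MCF-10A exosomes were 2.50-fold lower (1.29 to 5.54). miR-1296 was at 3.81, 6.32, 5.83 and 7.26, and was 2.74-fold lower (1.30 to 6.91). In both lines these names were at lower levels in exosomes than in the cell library.

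**Figure D3:**
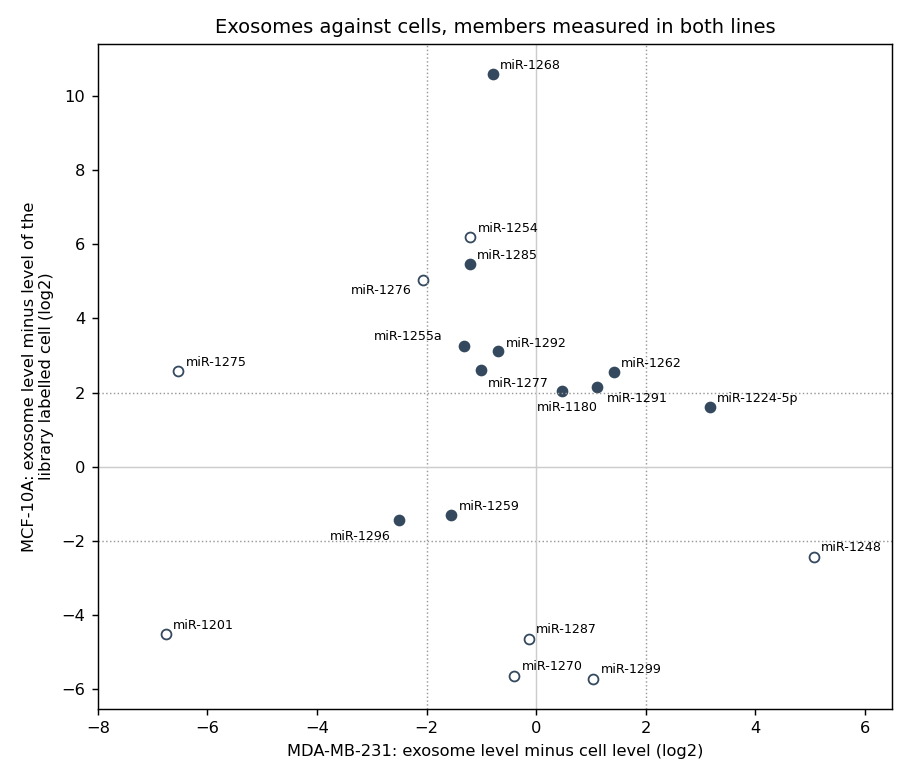
Log2 difference of levels for the 19 late-named miRNAs measured in both comparisons, 1 library a group: MDA-MB-231 exosomes minus cells (horizontal), and MCF-10A exosomes minus the library labelled MCF-10A cell (vertical). Open points have 0 reads in at least 1 library, and dotted lines mark a 4-fold size. miR-1268 lies at −0.79 and 10.58, and miR-1201 is the single name past 4-fold on the lower side in both comparisons.

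Of the 19 names measured in both comparisons of exosomes with a cell library, 17 (89.5%) had a different call in each, beside 301 of all 459 names (65.6%). By the 4-fold size, 9 were within in MDA-MB-231 and higher in MCF-10A exosomes: miR-1180, miR-1254, miR-1255a, miR-1262, miR-1268, miR-1277, miR-1285, miR-1291 and miR-1292. A further 3 (miR-1270, miR-1287 and miR-1299) were within in MDA-MB-231 and lower in MCF-10A. miR-1275 and miR-1276 were lower in MDA-MB-231 and higher in MCF-10A, and miR-1248 the reverse. These calls rest on few reads: miR-1275 had 2 and miR-1276 had 4 in MCF-10A exosomes, and miR-1248 had 5 in MDA-MB-231 exosomes. By the rule on reads, none of these names was measured in both comparisons. miR-1201 was lower in both, though in MCF-10A within what a count of 0 allows. The difference between the 2 comparisons was not tested, since each rests on 1 library a group.

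Between the exosomes of the lines, 25 names were measured, of which 4 were higher in MDA-MB-231, 9 lower and 12 within 4-fold. Over all 505 names 29.3% were higher and 19.0% lower, 48.3% in either direction, beside 52.0% of the late-named miRNAs. Their median difference was −0.12, and that of all names 0.59. With 103 reads in MDA-MB-231, miR-1270 had none in MCF-10A exosomes, at least 28.1-fold higher. miR-1287 (25 reads) and miR-1299 (16 reads) also had none in MCF-10A exosomes and were at least 6.82-fold and 4.37-fold higher. The fourth was miR-1289, with 2 reads, a level within what a count of 0 allows in MCF-10A exosomes. miR-1248 followed within 4-fold (5.07 and 3.17).

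The 9 lower names were miR-1244, miR-1254, miR-1255a, miR-1260b, miR-1275, miR-1278, miR-1290, miR-1293 and miR-1296. In MDA-MB-231 exosomes, miR-1293 was at least 5.29-fold lower and miR-1255a 13.4-fold lower (1.95 to 578). miR-1260b, miR-1290, miR-1278 and miR-1275 had no read in MDA-MB-231 exosomes and 4, 4, 3 and 2 in MCF-10A exosomes. With the 3-read bound, miR-1260b and miR-1290 came out 1.63-fold lower and miR-1278 1.22-fold, without the counting error of their 4, 4 and 3 reads. The level of miR-1275 was within what a count of 0 allows. For these names a difference was therefore not resolved, and none had the 10 reads that the rule on reads requires. By the rule on reads, 11 names were measured, with 4 higher (miR-1270, miR-1287, miR-1299 and miR-1292, the last 1.85-fold, 1.19 to 2.92) and 3 lower (miR-1255a, miR-1293 and miR-1285, the last 2.76-fold, 1.73 to 4.52), beside 171 higher and 98 lower (28.7%) of all 342 names, 78.7% in either direction. miR-1268 was not resolved, at 1.13-fold higher in MDA-MB-231 exosomes (0.982 to 1.29).

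Between the cell libraries, that of MDA-MB-231 against the library labelled MCF-10A cell, 31 names were measured. Of these, 13 were higher in MDA-MB-231 (41.9%), 10 lower (32.3%) and 8 within 4-fold, beside 17.4% higher and 54.3% lower of all 665 names, 71.7% in either direction. The median difference was 1.26, and that of all names −2.83. With the scaling to reads outside the other-tissue markers 9 were higher and 11 lower, and the median of all names moved to −3.68. miR-1268 was 6248-fold higher (1121 to 246825), the largest log2 difference of the 665 names. miR-1276 had 123 reads against 0, at least 61.0-fold higher, and miR-1275 was 49.9-fold higher (13.3 to 420; levels 6.53 and 1.50).

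Higher names with more reads in both cell libraries included miR-1285 (8.68 and 3.47, 40.7-fold, 22.4 to 82.5) and miR-1292 (9.53 and 4.83, 26.9-fold, 18.6 to 40.3). miR-1270 was 18.3-fold higher (13.8 to 24.6), miR-1277 12.0-fold (6.59 to 24.1; levels 7.06 and 3.58) and miR-1287 7.56-fold (4.94 to 12.0; levels 7.50 and 4.63). miR-1254 (level 5.01) had no read in the library labelled MCF-10A cell and was at least 11.4-fold higher. On the other side miR-1247, with no read in the MDA-MB-231 cells, was at least 92.2-fold lower. miR-1179 was 71.0-fold lower (27.5 to 262; levels 2.69 and 8.60), miR-1271 34.0-fold (11.4 to 167; levels 2.35 and 7.13) and miR-1249 20.8-fold (8.73 to 65.0; levels 2.96 and 7.16). miR-1248 and miR-1251 had no read in MDA-MB-231 cells and were at least 11.6-fold and 5.37-fold lower. By the rule on reads, 30 names were measured, 15 higher, 13 lower and 2 unresolved, beside 26.5% higher and 67.8% lower (94.3% in either direction) of all 661 names.

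The names of each kind differed in where their reads lay. The 5 Alu-derived names (miR-1268, miR-1285 and 3 names of miR-1273) summed to 3510 reads per 10000000 in exosomes and 6152 in cells of MDA-MB-231, 3427 in exosomes of MCF-10A, but 11.9 for the library labelled MCF-10A cell. Within them miR-1273d was at 4.76, 4.67, 3.17 and 0 in the same order. In MDA-MB-231, 0 of the 3 measured names were past 4-fold, and in MCF-10A both measured names were higher in exosomes.

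The list of 10 names with counterparts annotated in other mammals was set by hand and need not be complete. These names were highest where the Alu-derived names were lowest, while the other 3 libraries kept the same order in both kinds. They summed to 313, 449, 191 and 913 reads per 10000000, and 6, 7, 3 and 10 of the 10 were above 0. In the library labelled MCF-10A cell their reads were mostly on miR-1179 (chr15:88608107-88608197, plus strand, outside annotated genes), miR-1296 (chr10:63372957-63373048, minus strand, in an intron of the histone demethylase relative JMJD1C), miR-1249 (chr22:45200954-45201019, minus strand, in an intron of KIAA0930) and miR-1271 (chr5:176367946-176368031, plus strand, in an intron of ARL10). miR-1298 and miR-1264 lie in introns of HTR2C, a serotonin receptor gene of the brain, and miR-1251 in an intron of RMST, a long non-coding RNA of neural cells. These 3 had reads in the library labelled MCF-10A cell alone, which is the deepest library. They stood there at 13.7, 8.23 and 21.9 reads per 10000000, under the 23.9 that a count of 0 allows in MCF-10A exosomes. In the library labelled MCF-10A cell the 5 brain markers held 0.353% of reads, beside 0.0172% to 0.0352% in the others. Other markers held more of its reads: 30.1% for stroma, 12.4% for muscle, 2.09% for endothelium and 1.83% for blood. miR-1245, 1 of the 16 names found there alone, lies in an intron of the collagen gene COL3A1, which stromal cells express. It had 2 reads there (1.83 per 10000000), under what a count of 0 allows in every other library, so its absence from them was not detectable. The part of these tissues in the result was not tested.

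The 14 mirtron names were rare everywhere. They summed to 39.1, 17.7, 15.9 and 41.1 reads per 10000000, from 6, 13, 2 and 45 reads, with 2, 5, 1 and 9 names above 0. The 3 names listed as overlapping a snoRNA or a tRNA summed to 97.9, 39.5, 63.8 and 59.4. These reads lay on miR-1291 and miR-1248 in 3 libraries and on miR-1291 and miR-1280 in MDA-MB-231 cells. miR-1201 and miR-1259 have no RefSeq gene, so such an overlap could not be checked for them. They count under no list, at 0, 108, 0 and 21.9 (miR-1201) and 45.7, 135, 71.7 and 179 (miR-1259) reads per 10000000. The 6 names of the PVT1 locus had no read in any library. The 51 names in no list summed to 1481, 2335, 837 and 820.

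**Figure D4:**
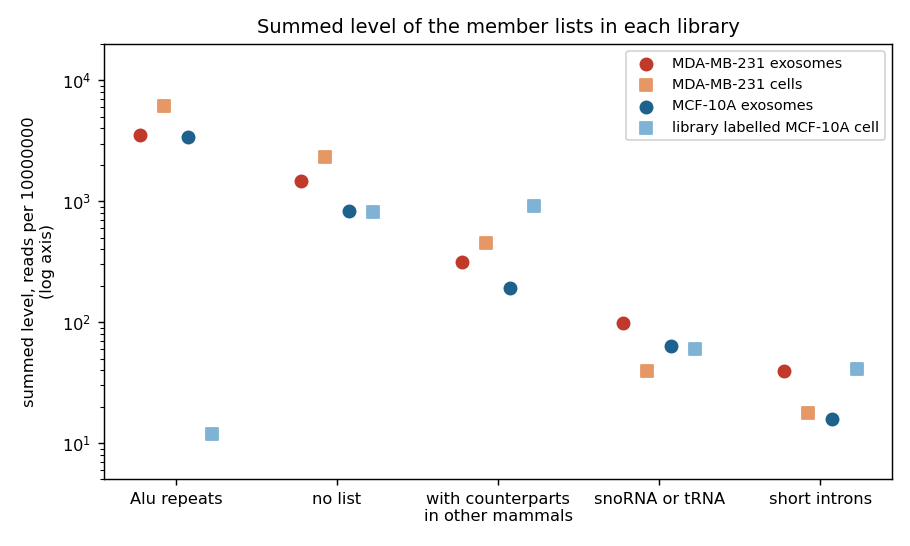
Summed reads per 10000000 (log axis) of the late-named miRNAs of each kind in the 4 libraries, 1 library a group. Alu-derived names stand at 3427 to 6152 in 3 libraries and at 11.9 in the library labelled MCF-10A cell, where names with counterparts in other mammals sum to 913.

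In RefSeq, 83 of the 89 names had a gene, and 3 of them had more than 1. The 6 names without one were miR-1201, miR-1254, miR-1259, miR-1273, miR-1273d and miR-1280. Of the 79 loci with a known strand, 12 overlapped an exon of another gene on the same strand (GENCODE 29), 52 lay in introns only and 15 outside genes. MIR1224 and MIR1225, both in introns, count under each of their arms here. miR-1268 (MIR1268A, chr15:22225278-22225329, minus strand) lay outside annotated genes. miR-1292 (MIR1292, chr20:2652777-2652842, plus strand) overlapped an exon of NOP56, a core protein of box C/D snoRNA particles, and miR-1247 (MIR1247, chr14:101560287-101560422, minus strand) one of the long non-coding RNA DIO3OS. miR-1285 has 2 loci, on chromosome 7 within KRIT1 and on chromosome 2 outside genes, and its reads cannot be assigned to either.

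Hairpin stability was computed from the RefSeq hairpins with RNAfold, as minimum free energy in kcal/mol per 100 bases, where a more negative value is a more stable fold. The median over the 62 hairpins of the block was −41.0 (quartiles −51.1 and −33.6), beside −44.5 over 307 hairpins with lower numbers and −44.4 over 154 with higher numbers. No hairpin was available for miR-1268, the most abundant name in 3 libraries. The same held for miR-1285, miR-1271, miR-1255a, miR-1254, miR-1259 and miR-1201, among others, so the hairpin values here leave these names out. The values ranged from −15.9 for miR-1243 to −83.2 for miR-1258. Both arms were listed for 33.9% of the hairpins of the block, 52.8% of the lower-numbered and 11.0% of the higher-numbered. The median was −37.9 over 20 hairpins of names with no read, −43.9 over 23 of names with reads in 1 or 2 libraries and −41.0 over 20 of names with reads in 3 or 4 (the MIR1224 hairpin counts under each of its arms). Their ranges, −61.9 to −18.7, −83.2 to −15.9 and −68.7 to −17.6, overlapped. Among names with 1 mature sequence, those under 20 bases made up 20.0% of 50 in the block. They made up 5.80% of 276 lower-numbered and 47.4% of 156 higher-numbered names.

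**Figure D5:**
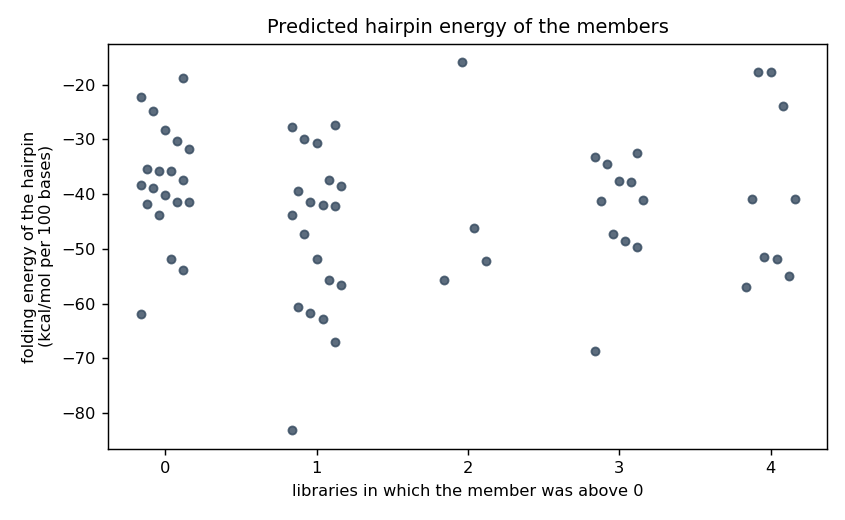
Minimum free energy of the hairpins of late-named miRNAs (kcal/mol per 100 bases) by the number of libraries in which the name had reads. Names without an available hairpin, miR-1268 among them, are not shown. The medians are −37.9, −43.9 and −41.0 for no library, 1 or 2 libraries and 3 or 4 libraries, and the ranges overlap.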

How the data were processed

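The deposited values of the authors are 1 file per library on a log2 scale with 2 decimals; read as log2(reads per 10000000 + 1), they gave whole reads, within the rounding of 0.005, for 100% of the low values that it resolves (40.1% to 65.7% of names above 0). Larger read numbers are known only to that rounding. The submitters' processing notes list Novoalign, edgeR and hg18, without version or role. The miRNA registry release and the assignment of reads to names are not given in the sources used here. Calls by size on log2 levels were the main ones and the rule on recovered reads an alternative. A name counted as measured where either library held 10 or more reads per 10000000, and it was called at a 4-fold size. Ratios have exact conditional binomial 95% intervals, and shares Wilson 95% intervals. A fold against 0 reads uses 3 reads as the floor and the other count as it stands, without its counting error.

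The text names every late-named miRNA reaching 50 reads per 10000000 anywhere, the 5 largest folds per comparison in either direction, and listed kinds reaching 10; other names were chosen after their values were seen. The names described and the lists were chosen with earlier results of these data known. Sequences and loci are RefSeq GRCh38.p14, host genes GENCODE 29. Alternatives were upper-quartile and median-of-ratios scaling, a pseudocount of 10, minimum levels, a 2-fold size, recovered reads and names with equal values counted once; a scaling outside other-tissue markers, and each scaling of the recovered reads, were added after seeing the data. Read recovery and intervals were tested on simulated data. Python 3.11.15, numpy 2.4.6, scipy 1.17.1, pandas 2.3.3, matplotlib 3.10.9 and RNAfold 2.7.2 were used.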

Additional observations from a re-analysis of the deposited data

Results flagged for a closer look

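For 5 late-named miRNAs the exosome level differed in opposite directions from the cell library of MDA-MB-231 and from the library labelled MCF-10A cell, with a counting interval or a 3-read bound that left out no difference in each. The log2 difference, exosomes minus the cell library, was −0.79 in MDA-MB-231 and 10.58 in MCF-10A for miR-1268. It was −1.01 and 2.60 for miR-1277, −1.21 and 5.46 for miR-1285, and −0.69 and 3.12 for miR-1292. miR-1299 went the other way, at 1.04 and −5.71. Upper-quartile scaling took its MDA-MB-231 value to 0.11 and ended that call, which left 4 names with opposite directions. The difference between the comparisons was not tested, since each group held 1 library. Over all names, 140 of the 251 called by reads in both had opposite directions, beside 5 of 8 late-named miRNAs, so opposite directions were common in this table. Each of the 5 MCF-10A values uses the library labelled MCF-10A cell.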

How the results depend on the processing

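Of the counts and shares recomputed, 73 stayed within 1.5 times of the reported count or within the counting interval and 27 moved. This tally compares counts and not names. By recovered reads, 0 of the 3 higher names of MDA-MB-231 were kept, though the count of 2 was taken as unmoved. Shares of names were set against intervals for shares of reads, an unlike measure, so their move carries no information on stability. Of 444 recomputed differences of single names, 47 left their counting interval and 9 changed sign, none of them past 4-fold. These include miR-1180 in MDA-MB-231, from 0.47 to −0.45, and miR-1259 between cell libraries, from −0.40 to 0.37, both with upper-quartile scaling, which turned the call by reads of miR-1259. The median for MCF-10A went from 0.84 to −0.04 with the scaling outside other-tissue markers. For MDA-MB-231 exosomes against cells, the 3 higher names became 1 with a pseudocount of 10, 0 with a minimum of 50 and 6 at a 2-fold size. The 5 lower names became 10 with upper-quartile scaling, 2 with the pseudocount of 10, 11 with no minimum, 11 at a 2-fold size and 10 by recovered reads. For MCF-10A exosomes against the library labelled MCF-10A cell, the 14 higher names became 8 with the pseudocount of 10, 8 by recovered reads and 9 with the scaling outside other-tissue markers. The 13 lower became 6 with that pseudocount, 22 with no minimum and 5 with a minimum of 50. By recovered reads, the 2 higher names of MDA-MB-231 became 0 with upper-quartile scaling, and the 9 lower of MCF-10A became 5 with median-of-ratios scaling. Between exosomes, the 4 higher became 9 with no minimum and 7 at a 2-fold size, and the 9 lower became 4 with the pseudocount of 10, 5 with a minimum of 50 and 3 by recovered reads. Between cells, the 10 lower became 5 with the pseudocount of 10 and 4 with a minimum of 50. As a share of names above 0 in place of reads, the block was 4.92%, 6.71%, 5.28% and 6.30% of names in exosomes and cells of MDA-MB-231, in exosomes of MCF-10A and, last, in the library labelled MCF-10A cell. Other causes of these shifts were not tested. Depth limits names with no read in exosomes: a level under 19.6 (MDA-MB-231) or 23.9 (MCF-10A) reads per 10000000 there cannot be told from absence. No paired analysis was possible because each group held 1 library, and no replicate could be left out.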
